A study of Mus musculus with 12 samples.

Results

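The mouse brain myeloid cells described here came from the 2 most different ways of taking the tissue apart in this series, enzymatic digestion without inhibitors (ENZ-NONE) and Dounce homogenization with inhibitors (DNC-INHIB). Every library with either label was used, 3 per group, which makes 6 of the 12 libraries. From them, 10118 of 14366 deposited cell barcodes were kept, those with at least 500 genes, at least 1000 unique molecular identifiers (UMIs, each standing for 1 captured transcript) and at most 10% of UMIs from mitochondrially encoded genes. Kept cells numbered 1570, 1119 and 1748 in ENZ-NONE replicates 4, 5 and 6, and 1544, 1952 and 2185 in DNC-INHIB replicates 4, 5 and 6. UMIs were summed per library over all genes, so the animal and not the cell was the replicate.

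The series asked how dissociation itself changes the transcripts of microglia. All 12 animals were male C57BL/6J mice at postnatal day 90, the whole brain was used, and live CD45+ CD11b+ cells were sorted. ENZ-NONE brains were digested with enzymes at a warm temperature and saw no inhibitor. DNC-INHIB brains were pressed through a cold glass Dounce homogenizer, and actinomycin D, triptolide (both block transcription) and anisomycin (which blocks translation) were present during the preparation. The 2 groups thus differed in both the dissociation and the inhibitors, and the contribution of each cannot be told apart from these 6 libraries alone. The other 6 libraries, DNC-NONE (Dounce without inhibitors) and ENZ-INHIB (digestion with inhibitors), shared the estimate of the spread and are given beside the results. Batch 1 of the labels held ENZ-NONE replicates 4 and 5 and DNC-INHIB replicate 4, and batch 2 held ENZ-NONE replicate 6 and DNC-INHIB replicates 5 and 6.

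Microglia are the resident macrophages of the brain, and they answer heat, shear and injury within minutes by transcribing immediate early genes. These genes include the FOS, JUN and EGR transcription factors, whose transcripts are made without new protein synthesis and are short-lived. Heat shock factor turns on chaperones of the HSP70 and HSP90 families, and short-lived inhibitors such as dual-specificity phosphatases and RNA-decay proteins end the response.

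The sort label was checked against markers. Between 88.9% and 92.2% of kept cells per library held at least 2 UMIs of microglial markers and at most 2 of the markers of other cell types. P2ry12, Tmem119 and Cx3cr1 were counted at 2135 CPM or more in each of the 6 libraries. CPM are UMIs per 1000000 UMIs of a library's tested genes, after the library scaling described below. The library sums held 1536732 to 3233159 UMIs. Of the barcode sequences, 105 occurred in more than 1 of the 6 libraries, with 2 to 11 shared by any pair. ENZ-NONE replicate 6 stood apart among the digested libraries. It had the highest CPM of the 3 in 42 of the 48 genes found higher below, and it was the only ENZ-NONE library of batch 2.

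Across 9884 genes tested with edgeR's quasi-likelihood test and Benjamini-Hochberg adjustment, 78 genes differed between ENZ-NONE and DNC-INHIB at an adjusted p below 0.05 and an absolute log2 fold change above 0.58. Of these, 48 were higher in ENZ-NONE, which was 0.486% of the genes tested, and 30 were lower, which was 0.304%. At an unadjusted p below 0.05 there were 944 genes. The higher genes had a median log2 fold change of 2.36 and 21 of them exceeded 8-fold. The lower genes changed less, with a median of −1.004 and 2 genes over 8-fold. The 3 ENZ-NONE values lay wholly above or below the 3 DNC-INHIB values in all 78 called genes and in 15.0% of all genes tested.

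**Figure D1:**
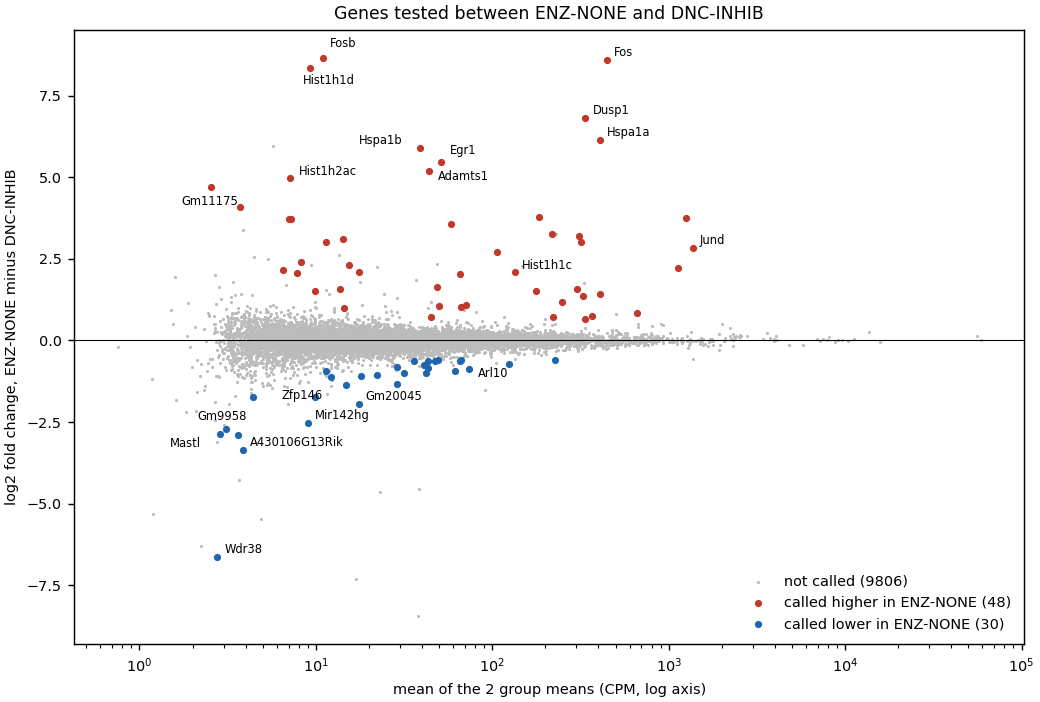
Each point is 1 of the 9884 genes tested, with the mean of the ENZ-NONE and DNC-INHIB group means in CPM on a log axis and the fitted log2 fold change (ENZ-NONE minus DNC-INHIB) on the vertical axis. The 48 red genes lie up to 8.65 above 0 and the 30 blue genes down to −6.63. The fitted values of Fosb, Hist1h1d and Wdr38, which had no UMI in 1 group, depend on the fitting method.

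The balance of higher and lower calls depended on how the spread between replicates was estimated. With robust shrinkage of the spread, an alternative chosen after seeing the data, 34 genes were higher and 38 lower, so that 47.2% of the calls were higher against 61.5% in the fit reported here. Without any low-count filter, 209 of 16511 genes were called. Leaving out DNC-INHIB replicate 5 left 14 lower genes and leaving out DNC-INHIB replicate 6 left 15, with 50 calls in all each time. The median log2 difference of the higher genes was 1.85 in batch 1 and 2.50 in batch 2, and that of the lower genes was −0.72 and −1.09.

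The AP-1 transcription factors, which pair FOS and JUN family proteins on DNA, held the largest changes. Of 10 listed genes, 8 were tested, 6 rose and none fell, with a median log2 fold change of 3.21 against 0.01 over all genes tested. Fos (chr12:85473890-85477273, plus strand; all positions are GRCm38) was counted at 416, 394 and 1853 CPM in ENZ-NONE replicates 4, 5 and 6, and at 0.932, 1.90 and 3.43 CPM in DNC-INHIB replicates 4, 5 and 6, the order used throughout. The groups did not overlap, and ENZ-NONE replicate 6 was far above the other two digested libraries. On the log2 scale the change of Fos was 8.60, with a standard error (SE) of 0.84 (adjusted p = 7.63e-06). Fosb (chr7:19302696-19310051, minus strand) was counted at 10.2, 19.0 and 36.8 CPM in ENZ-NONE and had no UMI in any DNC-INHIB library. Its 146 UMIs against a floor of 3 UMIs over the DNC-INHIB group correspond to a 62.1-fold difference (adjusted p = 1.48e-04). The exact interval for counting error began lower, at 49.8-fold.

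Jun itself was counted at 1813, 1879 and 3322 CPM against 154, 196 and 174 CPM, a change of 3.74 on the log2 scale (SE 0.37, adjusted p = 9.78e-06). Jund (chr8:70698949-70700616, plus strand) was counted at 1993, 2132 and 3091 CPM against 371, 322 and 318 CPM. All 3 digested libraries lay far above the 3 inhibited ones, a log2 difference of 2.84 (SE 0.20, adjusted p = 1.12e-07). Junb rose by 2.22 and the stress-induced factor Atf3 by 3.58 on the log2 scale. Fosl2 (0.21) and Mafk (0.33) did not pass the test. Summed over the list, AP-1 genes made up 0.564%, 0.591% and 1.07% of ENZ-NONE libraries, replicates 4, 5 and 6, and 0.0972%, 0.0944% and 0.0920% of DNC-INHIB libraries. Their mean share was 0.741% ± 0.284 (SD, n = 3) against 0.0946% ± 0.0026, a ratio of 7.84, without overlap between the groups (exact two-sided permutation p = 0.1, the smallest that 3 against 3 allow, and 0.28 adjusted over 28 lists). Within batches the difference was 0.480 percentage points in batch 1 and 0.976 in batch 2. In the other groups the mean share was 0.136% in DNC-NONE and 0.0878% in ENZ-INHIB. The DNC-NONE mean was raised by replicate 1, with 0.219%, 0.0965% and 0.0935% in replicates 1, 2 and 3. ENZ-INHIB replicates 1, 2 and 3 held 0.105%, 0.0775% and 0.0807%.

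How many cells carried these transcripts was counted after thinning each kept cell to 1000 UMIs, because deeper cells hold more of any transcript. A Fos UMI was found in 13.3%, 14.7% and 38.8% of ENZ-NONE cells and in 0.130%, 0.154% and 0.183% of DNC-INHIB cells (unthinned, 15.0%, 16.7% and 42.4% against 0.130%, 0.205% and 0.275%). A Jund UMI was found in 58.7%, 65.9% and 73.2% of thinned ENZ-NONE cells and in 30.2%, 27.0% and 25.4% of DNC-INHIB cells (unthinned, 64.7%, 72.5% and 81.4% against 37.6%, 33.4% and 34.1%). Jund was thus present in many cells of both groups, whereas Fos was rare in DNC-INHIB. The median UMI count per kept cell was 1319, 1298 and 1484.5 in ENZ-NONE and 1287.5, 1282 and 1408 in DNC-INHIB. What free RNA in the droplets adds to these shares was not estimated, since no cell type of the sort was taken as free of the genes. In summed counts, fewer cells of a type and less RNA per cell cannot be told apart.

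The other immediate early genes rose as well. Of 14 listed EGR, NR4A, IER and KLF genes, 10 were tested and 8 rose, with none lower and a median log2 fold change of 1.98. Egr1, a zinc finger factor induced by growth and stress signals, was counted at 71.1, 60.9 and 169 CPM in ENZ-NONE against 2.79, 1.90 and 2.19 CPM in DNC-INHIB. Its lowest digested value was more than 20 times its highest inhibited one (log2 fold change 5.48, SE 0.51, adjusted p = 4.10e-06). Ier2, Ier3 and Ier5, whose names mark them as immediate early response genes, rose by 2.71, 3.03 and 1.36. Ier3 was counted at 8.36, 9.82 and 42.99 CPM in ENZ-NONE against 0.466, 3.03 and 3.75 CPM in DNC-INHIB, and its log2 fold change was 1.77 without ENZ-NONE replicate 6. The Krüppel-like factors Klf2 and Klf6 rose by 3.01 and 1.17, the growth-restraining gene Btg2 by 1.42 and Egr2 by 2.17. Klf4 (1.80, adjusted p = 0.0931) and Myc (0.35, adjusted p = 0.773) did not pass. Leaving out 1 library ended the calls of Egr2, Ier3 and Klf6, whose adjusted p reached 0.107 without DNC-INHIB replicate 6, 0.298 without ENZ-NONE replicate 6 and 0.129 without DNC-INHIB replicate 5.

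**Figure D2:**
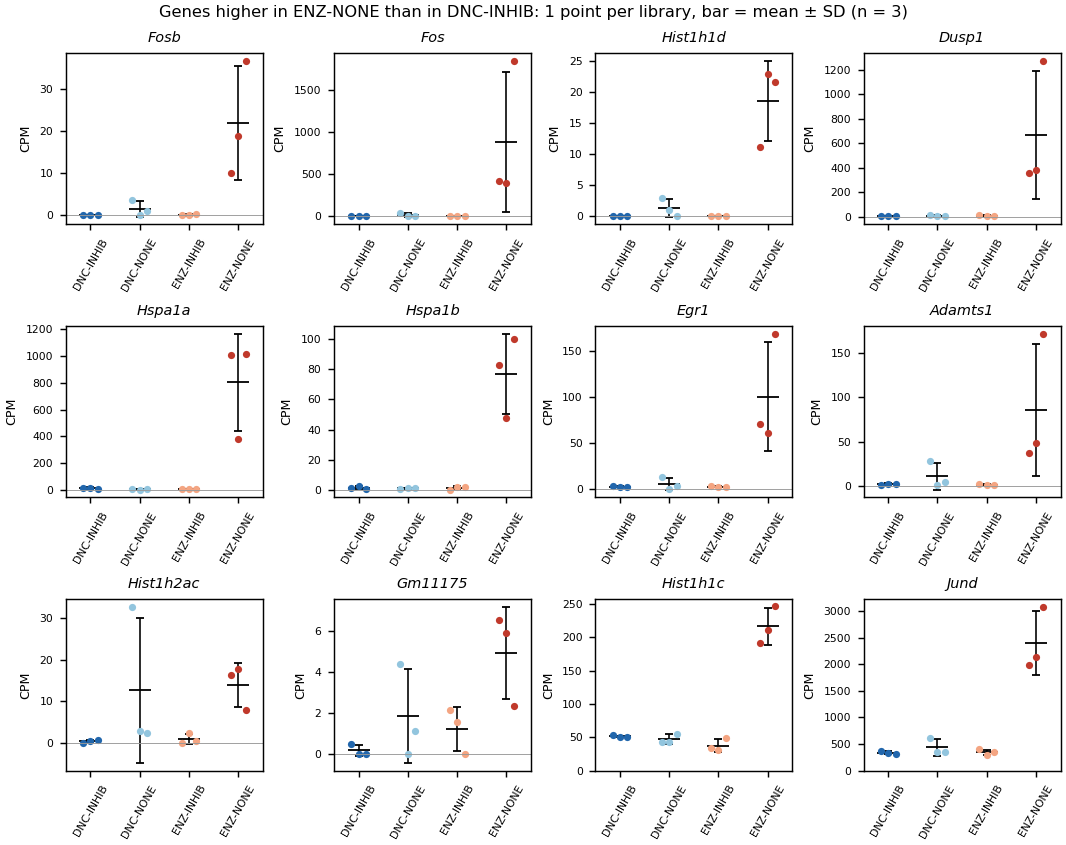
Each panel shows 1 of the 12 higher genes given in full, with 1 point per library in CPM (linear axis) for the 4 groups and a bar with whiskers for the mean ± SD of 3 libraries. The 3 ENZ-NONE points lie above the 3 DNC-INHIB points in every panel, and the highest Fos value, 1853 CPM, is that of ENZ-NONE replicate 6.

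Genes that restrain signalling or destabilize mRNA rose together with the factors. Of 13 tested members of this list, 7 rose and none fell, with a median log2 fold change of 0.83. Dusp1 (chr17:26505590-26562128, minus strand), a phosphatase that switches off MAP kinases, was counted at 358, 378 and 1271 CPM in ENZ-NONE and at 6.06, 3.03 and 8.12 CPM in DNC-INHIB. The groups were separated by a wide gap, a change of 6.83 on the log2 scale (SE 0.54, adjusted p = 5.84e-07). A Dusp1 UMI was found in 11.3%, 14.4% and 30.0% of thinned ENZ-NONE cells and in 0.712%, 0.307% and 0.595% of DNC-INHIB cells. Zfp36, which binds AU-rich mRNAs and speeds their decay, was counted at 253, 262 and 669 CPM against 34.0, 47.8 and 42.5 CPM, a change of 3.25 on the log2 scale (SE 0.34, adjusted p = 1.49e-05). Its relative Zfp36l1 rose by 0.74, while Zfp36l2 (−0.14, adjusted p = 0.685) did not pass.

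Rgs1, which shortens G protein signals, was counted at 81.3, 97.5 and 136 CPM against 27.0, 27.3 and 23.1 CPM (log2 fold change 2.04, SE 0.18, adjusted p = 1.67e-06). The GTP-binding protein Gem rose by 3.71, the small GTPase Rhob by 0.83 and the growth factor antagonist Spry1 by 1.01. Socs3, an inhibitor of cytokine signalling, was counted at 79.4, 119.7 and 1041 CPM against 49.8, 39.4 and 43.7 CPM and did not pass (log2 fold change 3.25, adjusted p = 0.0856). Its digested values were higher in every library but spread over more than 10-fold. Without ENZ-NONE replicate 6 the call of Spry1 was lost (adjusted p = 0.256), and without DNC-INHIB replicate 6 that of Zfp36l1 (adjusted p = 0.226).

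The chaperone list moved in a few members only. Of 20 tested genes, 3 rose and 1 fell, and the median log2 fold change was 0.02. Hspa1a (chr17:34969190-34972156, minus strand), an inducible HSP70 chaperone, was counted at 1011, 383 and 1015 CPM in ENZ-NONE and at 14.9, 15.9 and 4.68 CPM in DNC-INHIB. The lowest digested library was ENZ-NONE replicate 5, and the groups did not overlap (log2 fold change 6.14, SE 0.40, adjusted p = 6.33e-08). Hspa1b (chr17:34956436-34959238, minus strand), its near-identical neighbour, was counted at 83.1, 47.8 and 99.9 CPM against 0.932, 2.27 and 0.624 CPM (log2 fold change 5.91, SE 0.38, adjusted p = 6.33e-08). Reads that match both genes equally well cannot be assigned, so the split of counts between the pair is uncertain. A Hspa1a UMI was found in 36.4%, 19.4% and 34.3% of thinned ENZ-NONE cells and in 1.36%, 1.28% and 0.412% of DNC-INHIB cells.

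Hsp90aa1, the inducible HSP90, was counted at 505, 312 and 544 CPM against 149.5, 159.6 and 145 CPM, a change of 1.59 on the log2 scale (SE 0.16, adjusted p = 1.49e-05). The constitutive relative Hspa8 was counted at 2452, 2085 and 2999 CPM against 2273, 2595 and 2049 CPM and did not pass (0.12, adjusted p = 0.841). Hsp90ab1 (0.43, adjusted p = 0.358) and Dnajb1, a partner of HSP70 (0.44, adjusted p = 0.524), did not pass either. Dnajb4 (chr3:152178511-152210302, minus strand), another HSP70 partner, went the other way. It was counted at 33.4, 28.1 and 30.2 CPM in ENZ-NONE and at 50.3, 51.2 and 53.1 CPM in DNC-INHIB, narrow in both groups, a change of −0.75 on the log2 scale (SE 0.12, adjusted p = 0.00162). Its UMIs were found in 2.99%, 2.95% and 2.92% of thinned ENZ-NONE cells and in 4.92%, 4.87% and 4.90% of DNC-INHIB cells.

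The bases just before a start of 4 of these genes are shown because they hold the same short motif, a pair of facing heat shock units (GAANNTTC or TTCNNGAA), in genes that moved in opposite directions. Each window is the 250 bases before a RefSeq start in GRCm38.p6, written 5′ to 3′ on the gene's strand (minus for all 4), with motif matches in capitals (the heat shock pair and, where present, CCAAT or its complement ATTGG). The windows lie at chr17:34972157-34972406 for Hspa1a, chr17:34959239-34959488 for Hspa1b, chr4:95052223-95052472 for Jun and chr3:152193846-152194095 for Dnajb4, and none overlaps an annotated exon.
Hspa1a: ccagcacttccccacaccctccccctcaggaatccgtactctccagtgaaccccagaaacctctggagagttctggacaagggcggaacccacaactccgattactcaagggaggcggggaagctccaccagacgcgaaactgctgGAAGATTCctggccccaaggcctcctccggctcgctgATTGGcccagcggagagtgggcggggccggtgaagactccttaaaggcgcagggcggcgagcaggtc
Hspa1b: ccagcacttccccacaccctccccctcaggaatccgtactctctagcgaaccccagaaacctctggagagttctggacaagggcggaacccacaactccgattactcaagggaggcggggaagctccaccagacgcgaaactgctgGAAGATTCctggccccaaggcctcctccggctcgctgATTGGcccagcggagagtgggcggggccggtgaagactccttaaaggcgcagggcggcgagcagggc
Jun: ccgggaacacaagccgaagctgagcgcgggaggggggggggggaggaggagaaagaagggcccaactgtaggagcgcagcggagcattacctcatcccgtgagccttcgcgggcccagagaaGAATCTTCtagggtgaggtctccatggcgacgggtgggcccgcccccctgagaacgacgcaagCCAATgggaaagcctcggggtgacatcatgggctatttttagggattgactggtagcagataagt
Dnajb4: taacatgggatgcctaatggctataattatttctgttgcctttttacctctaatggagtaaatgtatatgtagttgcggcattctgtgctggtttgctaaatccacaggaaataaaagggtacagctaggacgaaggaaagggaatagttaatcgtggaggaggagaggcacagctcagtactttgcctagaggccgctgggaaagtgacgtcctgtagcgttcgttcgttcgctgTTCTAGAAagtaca

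The pair began 104 bases before the start in both Hspa1a and Hspa1b, whose windows were identical at 247 of 250 positions (98.8%). It began 128 bases before the start of Jun. For Dnajb4, RefSeq lists 2 starts, and the pair began 14 bases before the one inside the gene, whose window is shown. The window of the other, at the gene's 5′ end (chr3:152210084-152210333), held no motif searched. A promoter of 300 bases (250 before and 50 after a start) was found in the RefSeq table for 27 of the 48 higher genes, 20 of the 30 lower genes and 7820 of all genes tested, counting any start of a gene. The higher genes without a promoter at hand included Hsp90aa1, Egr1, Ier2, Ccl4, Rgs1, Gem and all called histone genes, so the motif shares leave them out. The heat shock pair was present for 5 of the 27 higher genes (18.5%; Egr2, Hspa1a, Hspa1b, Jun and Nfkbid), for 1 of the 20 lower genes (5%) and for 14.4% of all. These matches describe letters, not bound sites.

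Histone genes of the replication-dependent type, whose mRNAs normally end without a poly(A) tail, formed a further group. Of 16 tested, 8 rose and none fell, and the median log2 fold change was 2.04. Hist1h1c (chr13:23738808-23740367, plus strand), a linker histone gene, was counted at 192, 211 and 246 CPM in ENZ-NONE and at 52.6, 50.05 and 50.9 CPM in DNC-INHIB. Both groups were tight and far apart (log2 fold change 2.08, SE 0.14, adjusted p = 1.01e-07). Another linker histone gene, Hist1h1d (chr13:23553262-23560686, plus strand), was counted at 11.1, 22.9 and 21.7 CPM in ENZ-NONE and had no UMI in DNC-INHIB. With 115 UMIs against a floor of 3 over the group it was 48.9-fold higher (adjusted p = 1.59e-04), and the exact interval for counting error began at 39.1-fold. Hist1h2bc was counted at 245, 252 and 285 CPM against 90.8, 108 and 76.8 CPM (log2 fold change 1.51, SE 0.13, adjusted p = 1.44e-06).

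Other core histone genes rested on few UMIs. Hist1h2ac (chr13:23681467-23683948, minus strand) was counted at 16.3, 17.7 and 7.75 CPM against 0, 0.379 and 0.624 CPM, that is 82 against 3 UMIs, a ratio of 34.9 with a 95% counting interval of 11.5 to 172. Its fitted log2 fold change was 4.97 (SE 1.09, adjusted p = 0.0348). It was called in only 1 of the 6 fits that left out 1 library, and its adjusted p reached 0.157 without DNC-INHIB replicate 5. DNC-NONE also held this transcript, at 32.7 CPM in replicate 1 but at 2.79 and 2.22 CPM in replicates 2 and 3. Hist1h2bg had 46 against 3 UMIs, a ratio of 19.6 (6.29 to 98.3). Hist2h2aa1 rose by 3.71, Hist1h4i by 2.40 and Hist1h1e by 2.08, and without DNC-INHIB replicate 6 Hist1h1e was not called (adjusted p = 0.182). Reads shared between near-identical histone genes make single counts uncertain.

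The variant histones, most of which are made outside replication and carry poly(A) tails, had a median of 0.09 with none of 8 called. Their summed share was higher in ENZ-NONE, at 0.332%, 0.329% and 0.326% against 0.284%, 0.255% and 0.252%. The groups did not overlap (exact two-sided permutation p = 0.1, adjusted p = 0.28). H3f3b, a gene for a replacement histone H3, was counted at 2345, 2302 and 2426 CPM against 1842, 1568 and 1582 CPM. Its groups did not overlap, and with an adjusted p of 0.00611 it stayed below the fold limit (log2 fold change 0.50). None of 11 cell cycle genes was called (median −0.21). Their summed share was lower in ENZ-NONE, at 0.0248%, 0.0262% and 0.0258% against 0.0310%, 0.0298% and 0.0317%, without overlap. The exact two-sided permutation p was 0.1 (0.28 adjusted over 28 lists). Of the 28 lists, 10 did not overlap between the groups, 9 of them higher in ENZ-NONE. At the small share of calls over all genes, no call among 8 or 11 genes does not say that a list was unchanged. Top2a, a topoisomerase of dividing cells, was counted at 0, 1.96 and 0 CPM against 8.38, 3.41 and 2.81 CPM (adjusted p = 0.177).

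Among secreted signals, the chemokines Ccl3 and Ccl4, which draw in monocytes and T cells, and the cytokine Il1b rose, 3 of the 16 tested members of the list. Ccl3 was counted at 209, 235 and 585 CPM in ENZ-NONE and at 22.4, 28.1 and 25.0 CPM in DNC-INHIB (log2 fold change 3.78, SE 0.35, adjusted p = 4.10e-06). Ccl4 was counted at 313, 239 and 1119 CPM against 62.9, 81.9 and 38.4 CPM (log2 fold change 3.21, SE 0.45, adjusted p = 5.03e-04). For both, every digested library was above every inhibited one, by a narrower margin in Ccl4. Il1b was counted at 7.90, 7.20 and 61.6 CPM against 1.86, 3.03 and 4.06 CPM, so that 1 library carried most of the difference. Its log2 fold change of 3.12 (adjusted p = 0.0277) became 1.28 (adjusted p = 0.262) without ENZ-NONE replicate 6. Ccl2 (2.34, adjusted p = 0.129) did not pass, with 41.3, 20.9 and 177 CPM against 22.8, 16.3 and 12.2 CPM.

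Of 14 tested NF-κB subunits and inhibitors, 2 rose, both inhibitor-like proteins of the nucleus. Nfkbid, at 23.7, 17.0 and 44.5 CPM against 5.59, 7.96 and 6.87 CPM, rose by 2.10, and Nfkbiz, at 13.5, 17.0 and 46.9 CPM against 4.19, 5.31 and 6.24 CPM, rose by 2.32. Nfkbiz was not called without ENZ-NONE replicate 6 (adjusted p = 0.0641). Nfkbia, the classical inhibitor, did not pass (0.25, adjusted p = 0.784). The integrated stress response, which slows translation and induces repair genes, had none of 7 members called (median 0.28). With 0.486% of all genes called higher, no call among 7 does not say that the list was unchanged. Gadd45g, at 114, 108 and 510.4 CPM against 62.4, 51.2 and 41.2 CPM, came closest (2.29, adjusted p = 0.0535).

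Of the higher genes, 40 belonged to a list and 8 to none, with lists chosen when earlier results of these data were known. Adamts1 (chr16:85793827-85803113, minus strand), a secreted metalloprotease, was counted at 37.6, 48.4 and 171 CPM in ENZ-NONE and at 0.932, 2.65 and 3.12 CPM in DNC-INHIB. All digested libraries were at least 10 times above the inhibited ones (log2 fold change 5.20, SE 0.73, adjusted p = 5.03e-04). Gm11175 (chr8:70699162-70700080, minus strand) lies inside Jund on the opposite strand. It was counted at 6.50, 5.89 and 2.32 CPM against 0.466, 0 and 0 CPM, or 29 against 1 UMI, a ratio of 37.0 with an interval of 6.13 to 1510. The fitted log2 fold change was 4.71 (SE 1.07, adjusted p = 0.0429), called in 1 of 6 fits without 1 library (adjusted p up to 0.240, without DNC-INHIB replicate 6). Whether antisense reads were counted apart was not given in the sources used here, so Gm11175 and Jund cannot be told apart with certainty.

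The remaining higher genes changed less. The thioredoxin-like transmembrane protein Tmx4 rose by 1.03, Kctd12 by 0.65 and 1600014C10Rik by 0.72. Txnip, which binds thioredoxin and answers glucose and glucocorticoids, rose by 0.70, 1 of 7 tested members of the glucocorticoid and clock list. Among non-coding transcripts, the nuclear RNA Neat1 rose by 1.09, Gm26532 by 1.64, Gm26882 by 1.51 and the ribosomal-RNA-like Gm42418 by 1.06. Gm42418 was counted at 72.5, 62.8 and 66.2 CPM against 32.6, 34.5 and 30.0 CPM, and it overlaps AY036118 on the other strand. Of these genes, Tmx4 and Gm42418 were called in all 6 fits without 1 library. The others each lost the call in 1 or more, with adjusted p values of up to 0.213 for Gm26882 without ENZ-NONE replicate 6, 0.140 for Gm26532 and 0.108 for Neat1 without DNC-INHIB replicate 5, 0.0707 for Txnip without DNC-INHIB replicate 6 and 0.0706 for 1600014C10Rik without ENZ-NONE replicate 6. Kctd12 was lost only without ENZ-NONE replicate 6, through the fold limit.

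Of the 30 lower genes, 25 were in no list and 5 were list members, namely Dnajb4, Snhg20, Mir142hg, Leng8 and Tubb2a. These counts depend on which genes were listed, and no share over all genes tested is given beside them. Of the 30, 8 (26.7%) were long non-coding or antisense transcripts, against 10.4% of the higher genes and 2.86% of all genes tested. Their median annotated gene length was 7067 bp, against 3939 bp for the higher genes and 22749 bp for all. Another gene on the same strand overlapped 40% of the lower genes, 14.6% of the higher genes and 23.3% of all, and counts of overlapping genes are uncertain. The SD of log2 CPM between ENZ-NONE libraries, with 1 CPM added to each value, had a median of 0.19 in the lower genes. It was 0.59 in the higher genes and 0.19 in all genes tested.

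**Figure D3:**
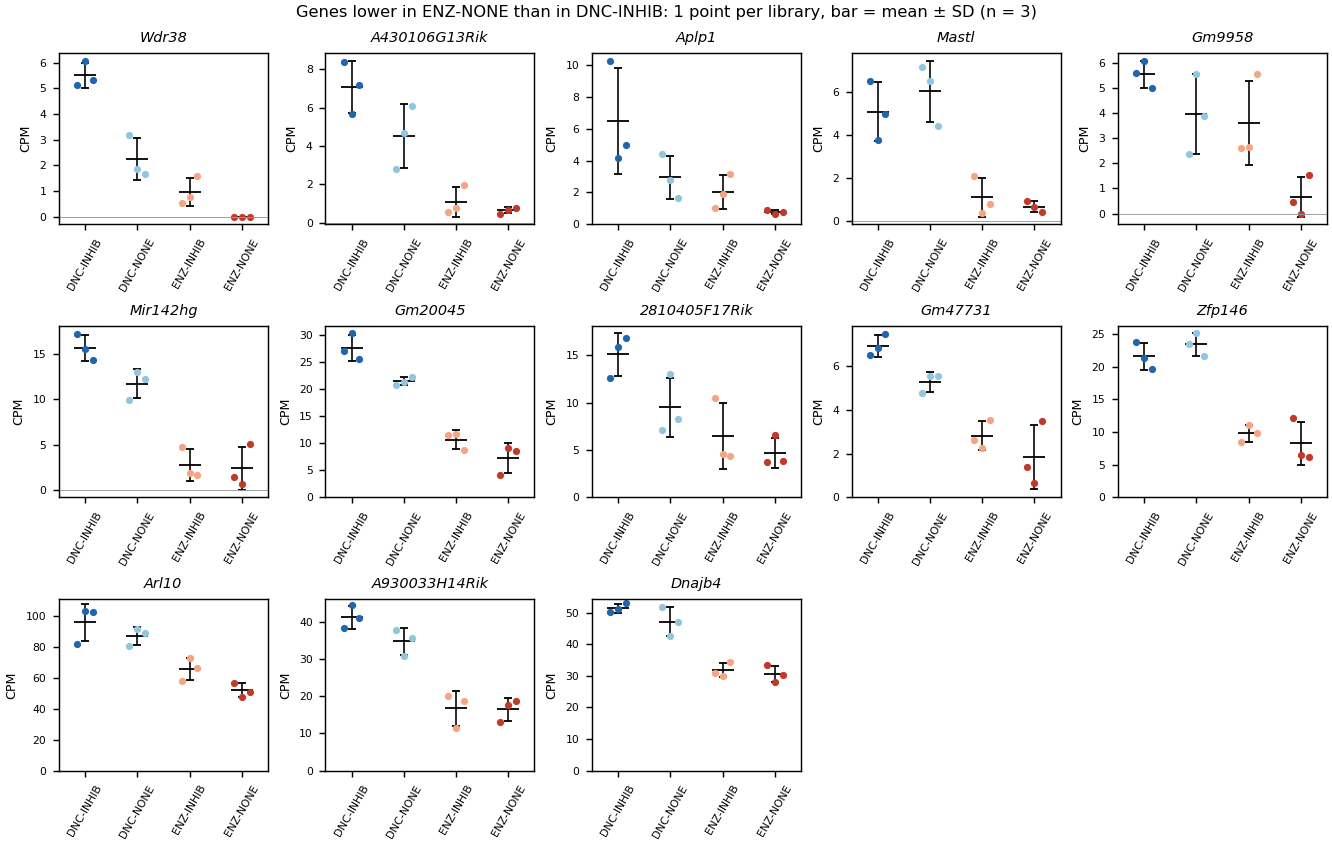
Each panel shows 1 of the 13 lower genes given in full, with 1 point per library in CPM (linear axis) for the 4 groups and a bar with whiskers for the mean ± SD of 3 libraries. The ENZ-NONE points lie below the DNC-INHIB points in every panel, and Wdr38 has no UMI in any ENZ-NONE library.

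Non-coding transcripts gave the largest called decreases that rested on more than 100 UMIs. Mir142hg (chr11:87755577-87757270, plus strand), the host transcript of the blood-cell microRNA miR-142, was counted at 1.39, 0.654 and 5.03 CPM in ENZ-NONE and at 17.2, 15.5 and 14.4 CPM in DNC-INHIB. The digested libraries varied among themselves but all lay below the inhibited ones (log2 fold change −2.52, SE 0.40, adjusted p = 0.00191). Gm20045 (chr1:171320601-171326177, minus strand) was counted at 4.18, 9.16 and 8.52 CPM against 27.0, 30.3 and 25.6 CPM (log2 fold change −1.93, SE 0.22, adjusted p = 5.24e-05). Its UMIs were found in 0.382%, 0.983% and 0.801% of thinned ENZ-NONE cells and in 2.59%, 3.07% and 2.29% of DNC-INHIB cells. 2810405F17Rik (chr4:137387266-137388382, minus strand) was counted at 3.72, 6.54 and 3.87 CPM against 12.6, 15.9 and 16.9 CPM (log2 fold change −1.75, SE 0.34, adjusted p = 0.0115). It was called in 2 of 6 fits without 1 library, with an adjusted p of 0.0842 without DNC-INHIB replicate 6.

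A430106G13Rik (chr1:137966531-137969918, plus strand) was counted at 0.464, 0.654 and 0.775 CPM against 8.38, 5.69 and 7.18 CPM, or 4 against 56 UMIs (log2 fold change −3.35, SE 0.53, adjusted p = 0.00163). It was called whichever library was left out. Gm47731 (chr13:37472038-37479213, plus strand) was counted at 1.39, 0.654 and 3.49 CPM against 6.52, 6.82 and 7.49 CPM (log2 fold change −1.74, SE 0.40, adjusted p = 0.0480). Without ENZ-NONE replicate 4 its adjusted p was 0.201, and it was called in 1 of 6 such fits. The snoRNA host gene Snhg20 fell by 0.93, 2610037D02Rik by 0.64 and the antisense transcript 9330160F10Rik by 1.09 on the log2 scale. The latter was not called without ENZ-NONE replicate 6 (adjusted p = 0.107), nor 2610037D02Rik without DNC-INHIB replicate 6 (adjusted p = 0.0828).

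Coding genes with few UMIs held the other large decreases. Wdr38 (chr2:38997476-39006168, plus strand), a WD-repeat gene that overlaps Arpc5l on its own strand, had no UMI in ENZ-NONE and was counted at 5.12, 6.07 and 5.31 CPM in DNC-INHIB. With a floor of 3 UMIs over the ENZ-NONE group it was 11.5-fold lower (adjusted p = 4.95e-04), and the exact interval for counting error began at 8.97-fold. Mastl (chr2:23115606-23156024, minus strand), the kinase called Greatwall that holds cells in mitosis, was counted at 0.929, 0.654 and 0.387 CPM against 6.52, 3.79 and 4.995 CPM (log2 fold change −2.87, SE 0.57, adjusted p = 0.0135). Aplp1 (chr7:30434982-30445535, minus strand), a relative of the amyloid precursor protein best known from neurons, was counted at 0.929, 0.654 and 0.775 CPM against 10.2, 4.17 and 4.995 CPM (log2 fold change −2.88, SE 0.58, adjusted p = 0.0158). Gm9958 (chr5:90367204-90368487, plus strand) was counted at 0.464, 0 and 1.55 CPM against 5.59, 6.07 and 4.995 CPM (log2 fold change −2.72, SE 0.58, adjusted p = 0.0277). No library of one group reached the other in these 4 genes, but each had 5 UMIs or fewer in ENZ-NONE as a whole. Mastl, Aplp1 and Gm9958 were called in 2, 1 and 1 of the 6 fits without 1 library, with adjusted p of up to 0.119 and 0.0977 without ENZ-NONE replicate 6 and 0.140 without ENZ-NONE replicate 4.

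Better counted coding genes fell by smaller amounts. A930033H14Rik (chr10:69209762-69213098, minus strand) was counted at 13.005, 17.7 and 18.6 CPM against 38.2, 44.4 and 40.9 CPM (log2 fold change −1.33, SE 0.18, adjusted p = 4.89e-04). Zfp146 (chr7:30161269-30169750, minus strand), a zinc finger gene, was counted at 12.1, 6.54 and 6.20 CPM against 23.8, 21.2 and 19.7 CPM (log2 fold change −1.36, SE 0.22, adjusted p = 0.00264). Arl10 (chr13:54575015-54581128, plus strand), an ARF-like small GTPase, was counted at 56.7, 47.8 and 50.7 CPM against 82.0, 103 and 102 CPM (log2 fold change −0.89, SE 0.12, adjusted p = 3.06e-04). Each of the 3 was called in all 6 fits without 1 library, and in each the digested values were all below the lowest inhibited one. Arl10 UMIs were found in 5.16%, 4.56% and 4.81% of thinned ENZ-NONE cells and in 7.97%, 9.89% and 10.3% of DNC-INHIB cells.

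The other lower coding genes were spread over many functions. Genes of RNA metabolism were Clp1, an RNA kinase of pre-mRNA and tRNA processing (−0.83), the RNA methyltransferase gene Bcdin3d (−0.62) and Leng8 (−0.58), the only called member of 26 splicing and RNA-binding genes tested. Chromatin and zinc finger genes were the remodeller Chd8 (−0.61) and Zfp644 (−0.63). Genes of trafficking and turnover were the Rab GTPase-activating Tbc1d16 (−1.003), the lysosomal hyaluronidase gene Hyal1 (−1.01), which overlaps Nat6 and Hyal3, and the ubiquitin ligase gene Trim65 (−0.64), which overlaps Trim47. Amn1 (−0.84), Fam212a (−0.60), Prrc2b (−0.94), D430042O09Rik (−1.06) and 2010109A12Rik (−1.12) complete the set together with the β-tubulin gene Tubb2a (−0.72). Tubb2a was counted at 90.6, 95.5 and 95.7 CPM against 139.7, 168 and 156 CPM and was the only one of 15 tested tubulin and actin genes called.

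When 1 library was left out, 12 of the 30 lower genes and 31 of the 48 higher genes were called in all 6 such fits. Prrc2b and 2010109A12Rik were called in none of them (adjusted p up to 0.175 without ENZ-NONE replicate 6 and 0.231 without DNC-INHIB replicate 6). Without ENZ-NONE replicate 6 the adjusted p was 0.230 for Trim65 and 0.0891 for Leng8. Without DNC-INHIB replicate 5 it was 0.183 for Chd8, 0.110 for Tubb2a, 0.0817 for Clp1, 0.0741 for D430042O09Rik, 0.0675 for Bcdin3d and 0.0626 for Tbc1d16, and Fam212a, with an adjusted p of 0.0219, fell short of the fold limit.

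Leaving out 1 library moved the fold change of 24 called genes by more than 1.5 times, and for 19 of them the library was ENZ-NONE replicate 6. Without it the log2 fold change went from 3.12 to 1.28 for Il1b, from 3.03 to 1.77 for Ier3, from 8.60 to 7.46 for Fos, from 3.01 to 1.90 for Klf2, from 3.58 to 2.50 for Atf3, from 5.20 to 4.14 for Adamts1 and from 3.21 to 2.20 for Ccl4. It also fell for Dusp1 (to 5.96), Ier2 (to 1.85), Nfkbiz (to 1.48), Gm26532 (to 0.86), Fosb (to 7.97), Ccl3 (to 3.13), Egr1 (to 4.84), Zfp36 (to 2.62) and Hist2h2aa1 (to 3.11). The lower genes Gm9958 (−4.09), Mir142hg (−3.78) and Gm47731 (−2.63) lay farther from 0 without it. Without DNC-INHIB replicate 6 the value was 9.19 for Fos, 4.33 for Gem, 5.66 for Hist1h2ac and 4.77 for Hist1h2bg, without DNC-INHIB replicate 5 it was 6.61 for Hspa1b, and without DNC-INHIB replicate 4 it was 6.41 for Gm11175.

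The libraries of the other 2 groups were then read for the same genes. They share no library with the comparison, and they hold digestion and inhibitors in the other combination. DNC-NONE replicates 1 and 2 and ENZ-INHIB replicate 1 were in batch 1, the others in batch 2. Kept barcodes were 72.3%, 34.0% and 50.9% in DNC-NONE replicates 1, 2 and 3, with median UMIs per kept cell of 1270, 1153 and 1200.5. In ENZ-INHIB replicates 1, 2 and 3 they were 59.8%, 82.7% and 80.8%, with medians of 1291, 1533 and 1572. The part of depth and batch in the contrast of ENZ-INHIB minus DNC-NONE was not tested. Over all genes, this contrast, chosen after seeing the data, called 9 genes lower (0.0911%) and 1 higher (0.0101%), with ENZ-INHIB wholly below DNC-NONE in 7.55% and wholly above in 7.47% of genes.

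**Figure D4:**
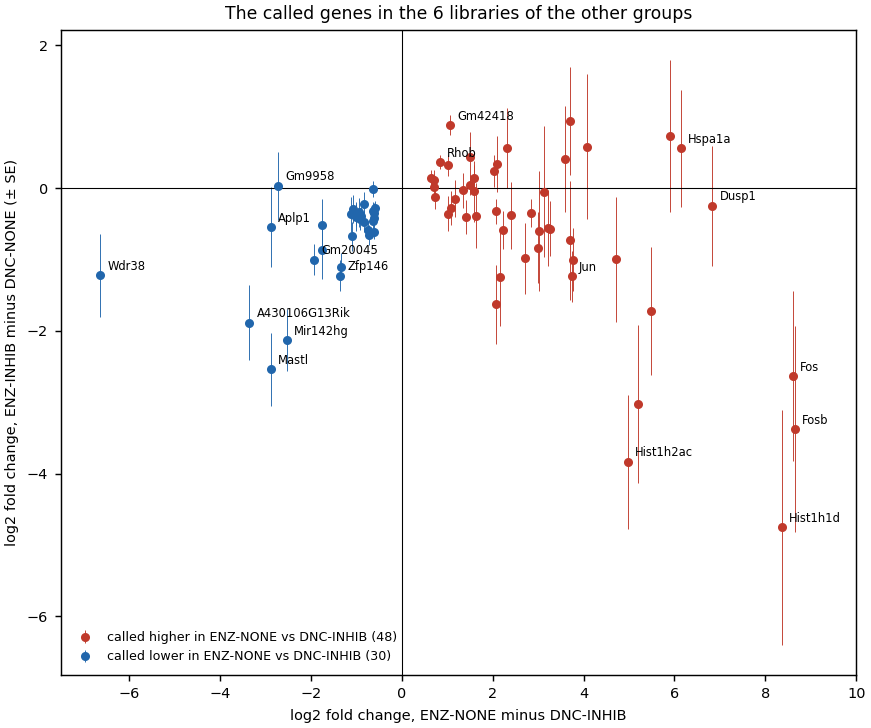
Each point is 1 of the 78 called genes, with its log2 fold change of ENZ-NONE minus DNC-INHIB on the horizontal axis and that of ENZ-INHIB minus DNC-NONE (± SE) on the vertical axis. Of the 30 blue genes, 29 lie below 0 on the vertical axis, and of the 48 red genes 17 lie above 0 and 31 below.

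Of the 30 lower genes, 29 were below in ENZ-INHIB, and for 24 all 3 ENZ-INHIB values lay below all 3 DNC-NONE values. The median log2 fold change was −0.47, against −0.00 over all genes. Fam212a, A930033H14Rik and Zfp146 were among the 9 genes called lower. A930033H14Rik was counted at 19.99, 11.4 and 18.6 CPM in ENZ-INHIB replicates 1, 2 and 3 and at 37.9, 30.7 and 35.5 CPM in DNC-NONE replicates 1, 2 and 3 (log2 fold change −1.10, adjusted p = 0.0234). Zfp146 was counted at 8.42, 11.0 and 9.91 CPM against 23.5, 25.1 and 21.6 CPM (−1.23, adjusted p = 0.0305), and Fam212a at 166, 169 and 193 CPM against 249, 273 and 288 CPM (−0.61, adjusted p = 0.0174). Mir142hg, at 4.73, 1.90 and 1.58 CPM against 9.96, 13.02 and 12.2 CPM, did not overlap but missed the threshold (−2.13, adjusted p = 0.0615). Gm9958 was the only one not below (0.03). Markers of other cells moved with this contrast too. Neutrophil granule genes held 0.00456%, 0.176% and 0.435% of the UMIs in DNC-NONE replicates 1, 2 and 3 and 1.56e-04% to 0.0566% in ENZ-INHIB. MHC class II and dendritic markers held 0.266% to 0.646% against 0.184% to 0.226%, and border macrophage markers 0.00966% to 0.0314% against 0.00476% to 0.00883%, both without overlap. The part of these cells in the lower genes was not tested in this contrast. The 6 lower genes whose values overlapped between ENZ-INHIB and DNC-NONE were Zfp644, D430042O09Rik, 2010109A12Rik, 2810405F17Rik, Gm9958 and Aplp1.

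The higher genes were split. Of 48, 17 were above and 31 below in ENZ-INHIB, with a median of −0.30. DNC-NONE replicate 1 stood above replicates 2 and 3 in some of these genes. Fos was counted at 37.1, 0.930 and 2.77 CPM in DNC-NONE replicates 1, 2 and 3, and Jun at 723, 219 and 203 CPM. In Atf3 replicate 1 was the lowest, at 3.99 CPM against 12.1 and 15.5 CPM. For 4 of the 48 (Gm26882, Gm42418, Tmx4 and Rhob) all 3 ENZ-INHIB values lay above all 3 DNC-NONE values, and for 3 (Jun, Klf2 and Hist1h1e) all lay below. Gm42418 was the 1 gene called higher, at 77.3, 70.8 and 59.8 CPM against 31.5, 41.9 and 41.6 CPM (0.88, adjusted p = 0.0174). The median over genes of the group mean was 98.3 CPM in ENZ-NONE, 18.0 in DNC-INHIB, 18.0 in DNC-NONE and 14.9 in ENZ-INHIB for the higher genes, and 18.7, 39.1, 31.0 and 22.7 CPM, in the same order, for the lower genes.

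Whether digestion acted alike with and without inhibitors was asked by the interaction contrast. It called 17 genes (0.172%), all with a larger digestion effect without inhibitors, and none of the 30 lower genes was among them. At so small a share over all genes, no call among 30 does not say whether digestion acted alike on them. Hspa1a had the largest interaction, 8.56 on the log2 scale (SE 0.83, adjusted p = 3.37e-05), with 3.16, 7.62 and 6.34 CPM in ENZ-INHIB and 7.17, 0.930 and 1.66 CPM in DNC-NONE. Hist1h1c followed the same course with 33.1, 30.1 and 49.1 CPM in ENZ-INHIB and 42.7, 42.8 and 55.5 CPM in DNC-NONE (2.64, SE 0.22, adjusted p = 8.42e-06). Jund (2.41), Hsp90aa1 (2.15) and Hist1h2bc (1.72) each had an adjusted p of 1.35e-04. Hsp90ab1 (1.21, adjusted p = 0.0359) was called here but not in the main comparison. Without DNC-INHIB replicate 5, 6 of the 17 were still called, and with robust shrinkage 6 were.

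**Figure D5:**
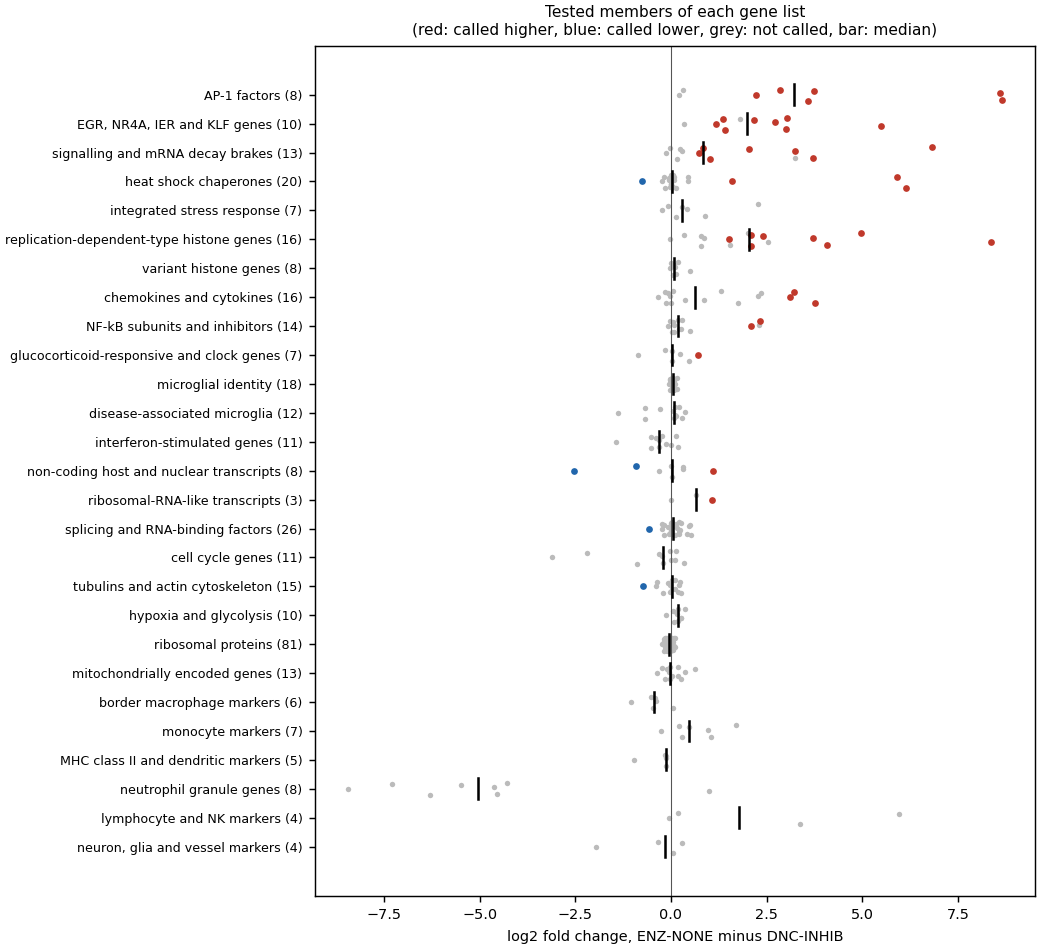
Each point is a tested gene of the list named at the left (number tested in brackets), placed at its log2 fold change of ENZ-NONE minus DNC-INHIB, with the list's median as a black bar. The medians of the AP-1 list (3.21) and the histone list (2.04) stand to the right, and microglial identity genes lie close to 0.

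Genes of microglial identity were not called. None of 18 passed the test and the median log2 fold change was 0.04. P2ry12, a purinergic receptor, was counted at 8263, 8428 and 6158 CPM against 7529, 7605 and 7145 CPM (0.04, SE 0.10). The list made up 7.96% ± 0.04 of all UMIs of ENZ-NONE and 8.10% ± 0.15 of those of DNC-INHIB (SD, n = 3; exact two-sided permutation p = 0.3, adjusted p = 0.494). No gene was called among 12 disease-associated microglial genes (median 0.09), 11 interferon-stimulated genes (−0.31), 10 hypoxia and glycolysis genes (0.17), 81 ribosomal protein genes (−0.05) or 13 mitochondrially encoded genes (−0.02). Over all genes tested, 0.486% were called higher and 0.304% lower. No call in lists of these sizes therefore does not say that their genes were unchanged. In the splicing list, Ddx5, an RNA helicase, had an adjusted p of 0.0158 below the fold limit (0.50).

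Markers of other cells moved with the groups in part. Of 14 listed neutrophil genes, 8 were tested and none was called. The granule gene Ngp was counted at 0.464, 0 and 0 CPM in ENZ-NONE and at 115, 2.65 and 109.6 CPM in DNC-INHIB, and S100a8 at 0, 0.654 and 7.36 CPM against 79.2, 2.65 and 139 CPM. DNC-INHIB replicates 4 and 6 thus stood above the digested libraries, with list shares of 4.59e-04% to 0.00579% in ENZ-NONE against 0.00118% to 0.0428% in DNC-INHIB, and Lcn2 had no UMI in ENZ-NONE. The cytotoxic lymphocyte gene Gzma was counted at 0, 14.4 and 19.4 CPM against 0.466, 0 and 0 CPM (adjusted p = 0.134). Border macrophage (6 tested), monocyte (7), MHC class II (5), lymphocyte (4) and neuron, glia and vessel markers (4) had no called gene, and no red blood cell gene passed the count filter. At the small share of calls over all genes, no call in lists of 4 to 8 genes does not say that they were unchanged. With microglial cells alone, 85 genes were called, 52 higher and 33 lower, and 69 of the 78 genes were among them.

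Depth and quality of the cells were compared per library. The share of barcodes kept was 69.0% ± 13.7 in ENZ-NONE and 71.2% ± 8.6 in DNC-INHIB (exact two-sided permutation p = 0.9), and the median mitochondrial share was 0.981% ± 0.109 against 0.951% ± 0.026 (p = 0.9 by the same exact test). After thinning to 1000 UMIs, the median number of genes per cell was 615, 615 and 609 in ENZ-NONE and 625, 622 and 619 in DNC-INHIB. The groups did not overlap (exact two-sided permutation p = 0.1, adjusted p = 0.4 over 4 measures). The difference was −10 genes in batch 1 and −11.5 in batch 2.

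Other promoter motifs were counted in the same windows, on both strands. The cyclic AMP response element (TGACGTCA) was present for 3 of the 27 higher genes with a promoter (11.1%; Btg2, Dusp1 and Nfkbid) and for 3 of the 20 lower genes (15%; Amn1, D430042O09Rik and Tubb2a), against 3.89% of all. One gene of each direction is shown, the 250 bases before the start, minus strand, GRCm38.p6, with the response element and any CCAAT box in capitals, at chr1:134079156-134079405 for Btg2 and chr13:34078009-34078258 for Tubb2a.
Btg2: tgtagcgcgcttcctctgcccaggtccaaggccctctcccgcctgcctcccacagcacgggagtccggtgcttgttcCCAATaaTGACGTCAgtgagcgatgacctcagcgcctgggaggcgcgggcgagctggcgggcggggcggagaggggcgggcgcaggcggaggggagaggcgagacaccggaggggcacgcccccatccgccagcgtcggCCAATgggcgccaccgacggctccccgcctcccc
Tubb2a: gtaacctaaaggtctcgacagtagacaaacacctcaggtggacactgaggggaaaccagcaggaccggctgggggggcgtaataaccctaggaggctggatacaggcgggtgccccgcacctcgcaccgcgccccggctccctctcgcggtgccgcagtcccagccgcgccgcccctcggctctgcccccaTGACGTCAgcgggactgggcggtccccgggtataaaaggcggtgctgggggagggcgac

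The element began 166 bases before the start of Btg2 and 59 bases before that of Tubb2a. The AP-1 element (TGAGTCA or TGACTCA) was found for none of the 27 higher genes, for 1 of the 20 lower genes and for 3.98% of all. The CArG box, the site of serum response factor, was found for 7.41%, 5% and 1.48%, and CCAAT for 59.3%, 40% and 43.1%, in the order higher, lower and all. A share of so few promoters moves by several percentage points with each gene, and no match says only that the letters are absent from this window.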

How the data were processed

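Live CD45+ CD11b+ cells of 12 mice were counted with 10X Genomics 3′ chemistry, 1 library per animal. The values the authors deposited are raw UMI counts per gene and cell barcode, made with Cell Ranger 3.0.0 against mm10 with a filtered Ensembl annotation, for barcodes called as cells and without normalization. Whether reads were counted by strand was not given in the sources used here. Reads that match several genes are not counted by that software, which lowers counts of near-identical genes.

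Barcodes with at least 500 genes, 1000 UMIs and at most 10% mitochondrial UMIs were kept and their counts summed per library. No doublet removal was applied in the main result. Sums were fitted with edgeR 4.0.16 (quasi-likelihood test, TMM scaling, filterByExpr, 1 mean per group, all 12 libraries, R 4.3.3) and p-values were adjusted by Benjamini-Hochberg over the 9884 genes tested of 31053. A gene was called at an adjusted p below 0.05 and an absolute log2 fold change above 0.58. The SE of a fold change was derived from the test, as the absolute log2 fold change divided by the square root of its F statistic. CPM are UMIs per 1000000 UMIs of the tested genes in the kept cells of a library, with that total multiplied by the library's TMM factor. Named genes are all called genes, apart from some whose results are not reported here, which stay in every fit and count. Those given in full are, in each direction, the 10 called genes with the largest change among those without overlap between groups and the 5 with the smallest adjusted p. The fitting script was tested on simulated counts.

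Per-library measures were compared by exact two-sided permutation, 20 assignments. Intervals of UMI ratios are exact 95% intervals and, like the floor of 3 UMIs, cover counting error only. Replicates are separate animals, and no pair agreed within sampling noise. Positions come from GENCODE on GRCm38 (31011 identifiers matched), promoters from RefSeq on GRCm38.p6. Alternatives were DESeq2 1.42.0, RLE scaling, no low-count filter, the 6 libraries alone, batch or replicate number as a term, the adjusted p alone, all barcodes, thinned cells, microglial cells alone, removal of the 5% highest Scrublet scores (scanpy 1.11.5), each library left out, and values within batch. Robust shrinkage and the contrast of ENZ-INHIB with DNC-NONE were added after seeing the data. Members and gene lists were chosen with earlier results of these data known.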

Additional observations from a re-analysis of the deposited data

Results flagged for a closer look

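For 17 genes the effect of digestion without inhibitors differed from that with inhibitors by the interaction contrast of edgeR's quasi-likelihood test (3 libraries in each of the 4 groups), always towards a larger effect without them. The log2 differences between the 2 effects were 8.56 for Hspa1a, 6.60 for Hspa1b, 2.15 for Hsp90aa1 and 1.21 for Hsp90ab1 among the chaperones, 2.68 for Jun, 2.41 for Jund and 2.18 for Junb among the AP-1 factors, and 3.97 for Klf2. Among the brakes they were 6.02 for Dusp1, 2.98 for Zfp36, 1.93 for Rgs1 and 0.74 for Rhob. The chemokines had 3.56 for Ccl3 and 4.28 for Ccl4, and the histone genes 2.64 for Hist1h1c and 1.72 for Hist1h2bc. No group had the 4 or more libraries needed to look for a single outlying library by that kind of test.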

How the results depend on the processing

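Without the low-count filter 209 genes were called (116 higher, 93 lower), and 73 for the interaction. Leaving out each library in turn gave 50 to 88 calls, 35 to 60 higher, 14 to 28 lower and 6 to 19 for the interaction, with 50 calls without DNC-INHIB replicate 5 (14 lower, 6 for the interaction) and without DNC-INHIB replicate 6 (15 lower). Robust shrinkage gave 6 for the interaction. DESeq2 called 68 genes, 64 of them among the 78. The cause of these changes was not tested. With the replicate number as a block 99 genes were called (61 higher, 38 lower) and 55 for the interaction. Apart from these, the counts of calls stayed within 1.5 times under the alternatives run, with 86 calls by the adjusted p alone. Since the groups of every called gene did not overlap, the sign of its difference in CPM could not turn when a library was left out or within a batch. Same-numbered libraries had correlations of deviations of 0.11, −0.02 and 0.16, ENZ-NONE replicate 5 did not correlate best with its own number, and nothing in the labels pairs the animals. Precision is limited by 3 animals per group, by the 2 treatments that differ at once, and, for the genes with few UMIs, by counting.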
